A study of Mus musculus with 4 samples.

Results

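The beaded, anchoring and fibril-associated collagens are described here through 8 genes, Col6a1, Col6a2, Col6a3, Col7a1, Col8a1, Col12a1, Col14a1 and Col16a1, in mouse embryonic fibroblasts (MEFs) with and without Ip6k1. Members were taken by gene name alone, as every probe on the array that is not a control and carries 1 of these names, which gave 14 of 41174 probes and 8 of 27827 gene names. Of the genes, 6 have 2 probes each and 2 (Col6a1 and Col7a1) have 1. Of the 14 probes, 10 were well above background on all 4 arrays by the call of the scanner software. A further 1, for Col6a3, was above background in 3 lines, and these 11 probes for 7 genes entered the genotype comparison. Col14a1 did not, since neither of its probes was above background in both lines of a genotype.

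Gene expression was measured in 4 MEF lines, 2 Ip6k1+/+ and 2 Ip6k1-/-, to ask which transcripts change when inositol hexakisphosphate kinase 1, an enzyme that makes inositol pyrophosphates, is missing. The embryos were E14 littermates from 1 cross of heterozygous parents. All 4 lines, controls included, express SV40 large T antigen, which immortalised them, and RNA came from growing cultures harvested with trypsin after thawing and 2 passages. Each line stems from 1 embryo and was hybridised to 1 single-colour Agilent array, with all 4 arrays on 1 slide, so that n = 2 lines per genotype throughout and a p-value rests on the spread between embryo-derived lines. The labels do not describe the deleted part of the gene or the mouse strain. As the cells are bulk cultures, a difference in the RNA per cell and a difference in the share of cells that express a gene cannot be told apart.

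Values are log2 of the background-corrected spot intensity minus the 75th percentile of that array, so that 0 marks the 75th percentile. A level can be compared between lines for 1 probe but not between probes, because probes differ in how strongly they bind and glow. The 75th percentile of the raw signal lay between 610 and 747 on the arrays, on which from 52.0% to 55.5% of probes cleared the background. The targeted gene matched the genotype labels: Ip6k1 probe A_51_P213766 read 0.35 and 0.39 in Ip6k1+/+ MEFs and -6.88 and -6.80 in Ip6k1-/- MEFs, below the background call in both of the latter, which makes it at least 34.0-fold lower (limma adjusted p = 0.0356). Probe A_52_P413035 was at least 32.7-fold lower. Both probes entered the comparison only through the Ip6k1+/+ lines. The Ip6k1-/- spread behind their p-values is that of readings below the background call. The third Ip6k1 probe, nearer the end of the transcript, read 2.46 and 2.61 against -1.98 and -1.23 and was still above background in both Ip6k1-/- lines, with a difference of -4.13 (limma adjusted p = 0.368). All 7 fibroblast markers examined, among them Col1a1, Pdgfra and Vim, were well above background on all 4 arrays. None of 5 epithelial, none of 5 skeletal myoblast, 1 of 5 endothelial (Kdr), 1 of 5 macrophage (Cd68) and 1 of 4 Schwann cell and neural crest markers (S100b) were. Of the chondrocyte markers 3 of 5 were, and their values are given with collagen VI.

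Collagens are built from chains that wind into triple helices, but these 8 genes do not make the striped fibrils of collagens I and III. Collagen VI joins an α1, an α2 and an α3 chain, encoded by Col6a1, Col6a2 and Col6a3, into a monomer that is stacked into beaded microfilaments around cells; fibroblasts are a main source of it. Collagen VII forms the anchoring fibrils that tie the basement membrane of skin to the dermis, and collagen VIII makes short-chain networks under endothelium and around vessels. Collagens XII, XIV and XVI belong to the FACIT group (fibril-associated collagens with interrupted triple helices), which associate with fibrils built by other collagens.

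What the array measured is set by its probes, each a strand of 60 bases that matches a stretch of spliced transcript. The first 30 bases are shown, 5′ to 3′ in the sense of the transcript, for the 5 collagen VI probes, Col7a1 and the 2 Col12a1 probes. Of the collagen VI probes, A_51_P474496 and A_51_P279639 carry the clearest genotype difference, whereas the Col6a3 probes read close to background. Col7a1 carries the widest gap between lines, and the Col12a1 probes gave opposite signs.
Col6a1 A_51_P474496: tccatgctcaacatgaagcagaccttctca
Col6a2 A_51_P279639: ttctttgacaggttcatccgctggatctgt
Col6a2 A_52_P362757: gttccccttttggttgatatcagggaagaa
Col6a3 A_52_P573586: gagggacagtttccaggaagtgctccgttt
Col6a3 A_52_P675592: cgttgggaaaaacaatttcccttatgtgcg
Col7a1 A_51_P255395: ccgaggctgtgataccatggtgctgatggg
Col12a1 A_51_P146168: gcagctgtctattcagaaagggcctttatc
Col12a1 A_52_P475805: ccagatgagcagattcaatcagatgctgaa

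The annotation in the files, on mouse build mm9, places the Col6a1 probe at chr10:76171899-76171958 and the Col6a2 probes at chr10:76058931-76058990 and chr10:76064567-76064626, so that both genes lie on chromosome 10 with their nearest probes 107 kb apart. The Col6a3 probes lie at chr1:92699157-92699216 and chr1:92710283-92710342. The Col7a1 probe lies at chr9:108886855-108886914, 936 kb from the Ip6k1 probes on the same chromosome, and the Col12a1 probes lie on chromosome 9 as well, at chr9:79447270-79447329 and chr9:79452328-79452387, 28.5 Mb from Ip6k1. Col8a1 is probed at chr16:57624471-57624530 and chr16:57627033-57627092, Col14a1 at chr15:55352132-55352191 and chr15:55176432-55176491, and Col16a1 at chr4:129776345-129776404 and chr4:129731701-129732422. The last interval is longer than its 60-base probe, which therefore crosses a splice junction. A gene annotation of this build was not used here, so that coding and untranslated exons are not told apart.

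Col6a1 and Col6a2, the collagen VI chains that were above background in every line, were lower in the Ip6k1-/- lines, and on none of their 3 probes did a line of 1 genotype overlap a line of the other, which held downwards for 11.5% of all probes above background in every line. The third chain, Col6a3, read lower as well but close to background. Col6a1 was 2.46-fold and Col6a2 2.82-fold lower on their main probes, and these 2 were the only genes among the 7 compared that passed a 2-fold rule, under which the mean difference is at least 1 on the log2 scale and each Ip6k1-/- line lies at least 0.9 below, or above, the Ip6k1+/+ mean. No member passed limma's test after adjustment over all 21573 probes, which 3 probes passed (0.0139%), 2 of them for Ip6k1. Counted by the brightest unsaturated probe of each gene, used here as its main probe, 1 gene name passed (0.00698%), and it was not Ip6k1.

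Col6a1 encodes the α1 chain. Its probe read 3.73 and 4.22 in Ip6k1+/+ MEFs and 2.80 and 2.54 in Ip6k1-/- MEFs. Both Ip6k1-/- lines were lower than both Ip6k1+/+ lines, by more than either pair differed within itself, 1.41-fold between the Ip6k1+/+ lines and 1.20-fold between the Ip6k1-/- lines. The difference was -1.30 (SE 0.25, 95% interval -1.95 to -0.64) with a limma p of 0.00415 unadjusted and 0.993 adjusted. Over all 14335 gene names compared, 3.04% had a difference this low or lower.

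Col6a2, for the α2 chain, was lower on both of its probes. Probe A_51_P279639 read 1.74 and 2.24 in Ip6k1+/+ MEFs and 0.72 and 0.26 in Ip6k1-/- MEFs, with a difference of -1.49 (SE 0.30, 95% interval -2.27 to -0.71), a limma p of 0.00473 unadjusted and 0.993 adjusted, and 2.27% of gene names this low or lower. Probe A_52_P362757, which is annotated to another transcript record than the first probe, read 1.35 and 0.30 against 0.08 and -0.40. On this probe the Ip6k1+/+ lines stood 2.08-fold apart, the lower of them close to the higher Ip6k1-/- line, and the difference of -0.98 (SE 0.44, limma adjusted p = 0.993) missed the 2-fold rule.

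Col6a3 encodes the α3 chain, the longest of collagen VI. Probe A_52_P573586 read -2.42 and -2.80 in Ip6k1+/+ MEFs and -3.40 and -6.78 in Ip6k1-/- MEFs, where replicate 2 fell below the background call. The difference of -2.48 had the widest error of the collagen VI probes (SE 1.15, limma adjusted p = 0.993), since the Ip6k1-/- lines stood 3.37 log2 units apart against 0.38 for the Ip6k1+/+ lines. Replicate 1 lay only 0.80 under the Ip6k1+/+ mean, so that the gene missed the 2-fold rule. With the dim value raised to the lowest signal that was well above background on its array, the difference was -1.43, and after normexp, another background correction, it was -0.79. The second Col6a3 probe read -4.45 and -5.27 against -5.94 and -6.83 and was above background in Ip6k1+/+ replicate 1 alone, so that it gives no more than an order of dim values.

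**Figure D1:**
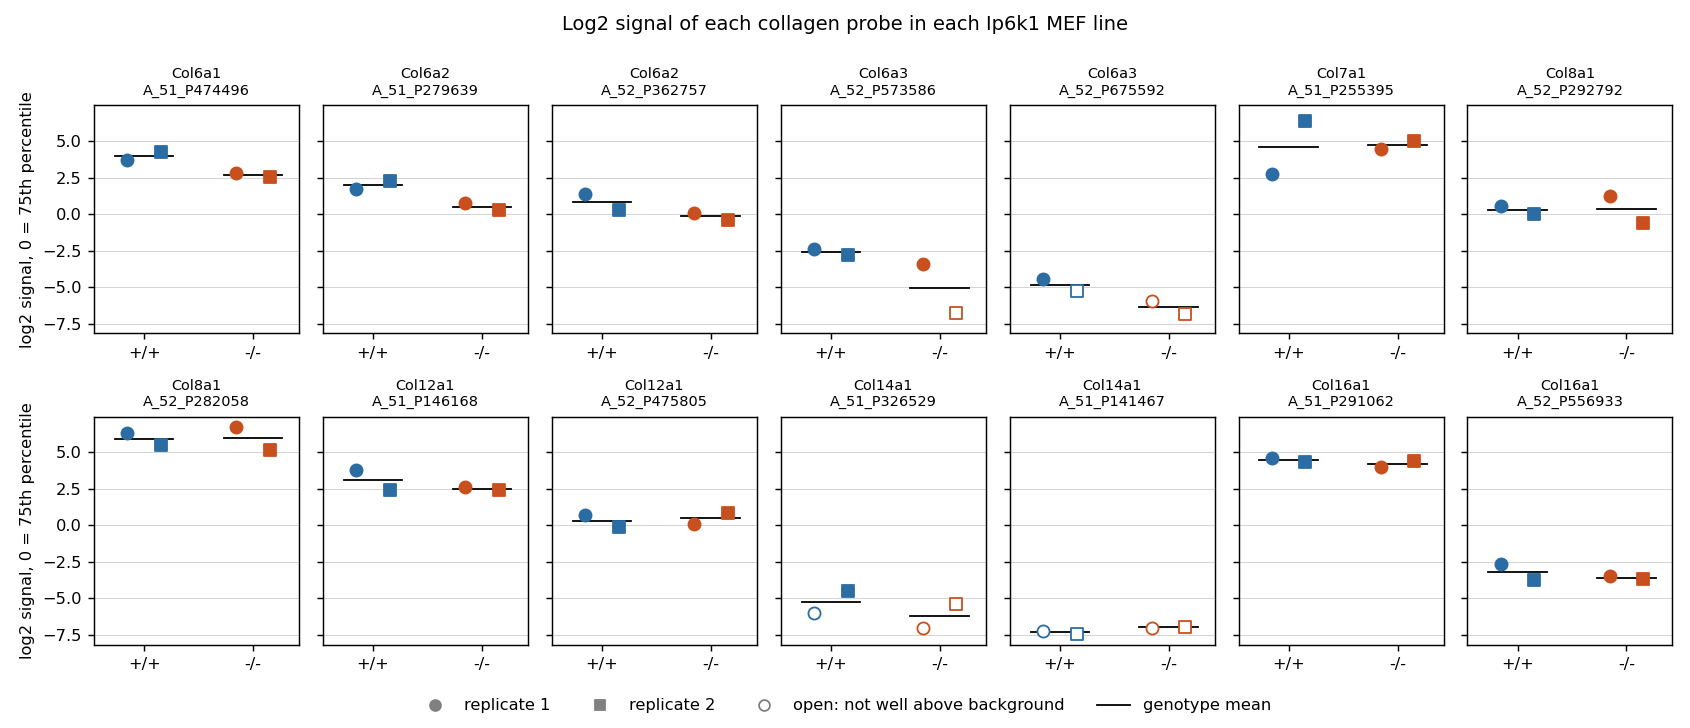
Log2 signal of the 14 collagen probes, 1 panel a probe, with 0 at the 75th percentile of the array. Points are the 2 Ip6k1+/+ lines (blue) and the 2 Ip6k1-/- lines (orange), circles replicate 1 and squares replicate 2, open where the spot was not well above background; bars are genotype means. On the 3 Col6a1 and Col6a2 panels both orange points lie under both blue points, on the Col6a3 panels they do so with open points among them, and on the Col7a1 panel they lie between the blue points at 2.74 and 6.39.

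Averaged over the main probe of each of the 3 chains, collagen VI read 1.02 and 1.22 in Ip6k1+/+ MEFs and 0.04 and -1.32 in Ip6k1-/- MEFs, a difference of -1.76 (SD between lines 0.14 and 0.96). This mean takes the Col6a3 value of Ip6k1-/- replicate 2, which was below the background call, at face value. With Col6a1 and Col6a2 alone the difference was -1.40, and with dim values raised it was -1.41. Without Ip6k1-/- replicate 2 it was -1.08, and under normexp it was -1.17, whereas without Ip6k1-/- replicate 1 it was -2.44. Col6a1 and Col6a2 passed the 2-fold rule whichever line was left out.

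Counted by gene, 3 of the 7 members compared (Col6a1, Col6a2 and Col6a3) had lines that did not overlap and lay lower in Ip6k1-/- cells, which 13.2% of all gene names did. Col6a3 entered only through the Ip6k1+/+ lines, where it is higher. Among the 6 members whose main probe was above background in every line, 2 were lower without overlap, against 12.2% of such gene names. No member had lines that lay higher without overlap, which 18.2% of all gene names and 18.8% of those above background in every line did. Passing the 2-fold rule downwards were 2 members, against 2.09% of gene names, and upwards none, against 1.07%. At an unadjusted limma p under 0.05 there were 2 members, both lower, against 2.34% of gene names lower and 1.37% higher, and the methods' t-test gave 2 before adjustment, against 3.94% of all probes, and none after it. The median difference over the 7 members was -0.57, with 5 of 7 negative, against 0.04 over all gene names, of which 6470 were negative. The 3 chains were chosen together and are not independent replicates.

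**Figure D2:**
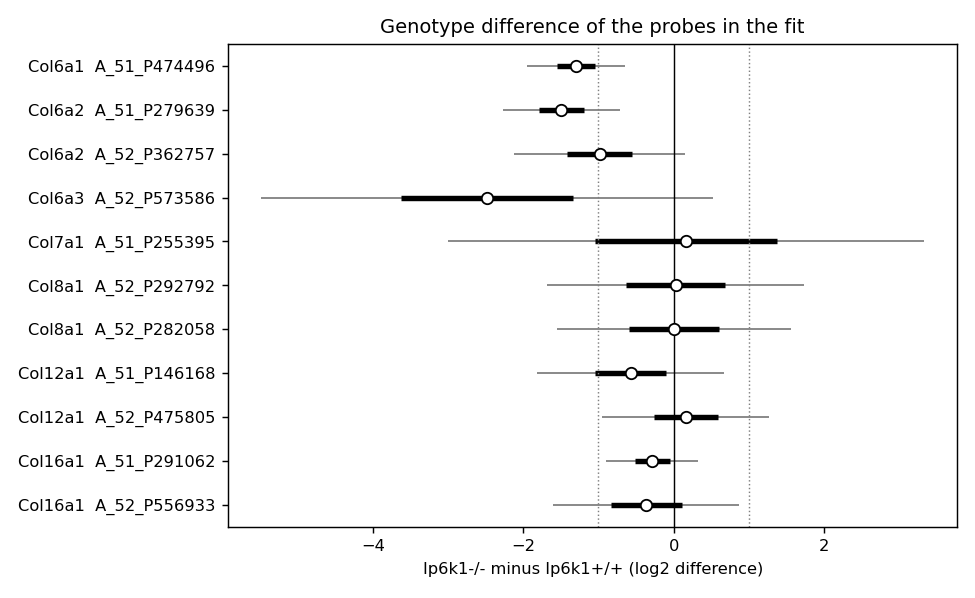
Difference between genotypes, Ip6k1-/- minus Ip6k1+/+ in log2 units, for the 11 collagen probes compared. Circles are the differences of the means of 2 lines, thick bars the limma standard error and thin lines the 95% interval, with dotted lines at a 2-fold change; the intervals of Col6a1 and of the first Col6a2 probe stay under 0 (-0.64 and -0.71 at their upper ends), and all others include 0. The second Col8a1 probe was saturated in 1 Ip6k1-/- line, so that its point is a lower bound.

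Col7a1, which encodes the chain of the anchoring fibrils, varied more between the control lines than between genotypes. Its probe read 2.74 and 6.39 in Ip6k1+/+ MEFs and 4.45 and 5.01 in Ip6k1-/- MEFs. The 2 control lines stood 12.6-fold apart, and both Ip6k1-/- lines fell in the space between them. The signal in Ip6k1+/+ replicate 2, 62699, carried no saturation flag but exceeded the 61295 of the saturated S100a4 on the same array. The 6.39 may thus be a lower bound, and the gap between the control lines may be wider. Only 1.05% of gene names had a wider gap between the Ip6k1+/+ lines, for which the median gap was 0.36, whereas the 2 Ip6k1-/- lines were 1.48-fold apart. The difference of 0.16 (SE 1.21, 95% interval -3.01 to 3.33, limma adjusted p = 0.994) therefore leaves room for a change of several fold either way. The sign turned with the control line used: against Ip6k1+/+ replicate 2 alone it was -1.66, and against replicate 1 alone 1.99.

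Col8a1 encodes the α1 chain of the collagen VIII network, and its 2 probes ranked the lines in the same order. Probe A_52_P292792 read 0.57 and 0.01 in Ip6k1+/+ MEFs and 1.22 and -0.58 in Ip6k1-/- MEFs. Probe A_52_P282058 read 6.35 and 5.52 against 6.72 and 5.16, with the 6.72 of Ip6k1-/- replicate 1 saturated, so that it is a lower bound. On both probes the highest and the lowest line were the Ip6k1-/- lines, with the controls between them. The difference on the first probe was 0.02 (SE 0.65, 95% interval -1.68 to 1.73, limma adjusted p = 1.00). On the second it was 0.01 as read, which the saturated spot makes a lower bound.

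**Figure D3:**
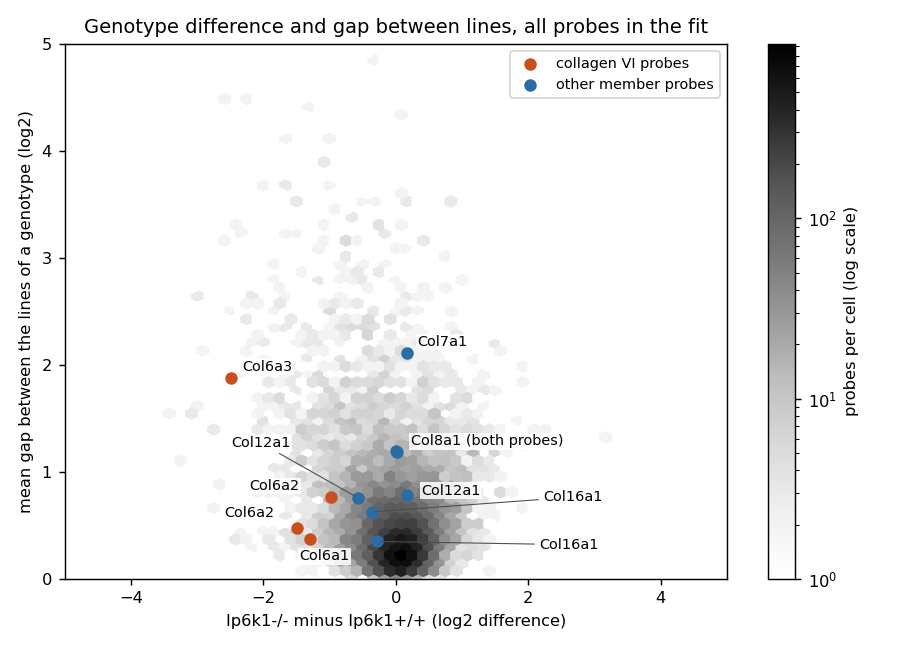
Difference between genotypes (Ip6k1-/- minus Ip6k1+/+, log2) against the mean gap between the 2 lines of a genotype (log2), for all 21573 probes compared (grey cells, darker for more probes, log scale) and for the collagen probes (orange for collagen VI, blue for the others). Col6a1 and Col6a2 lie to the left, at a narrower gap than Col6a3 and Col7a1. Col6a3 lies further left at a wide gap, and Col7a1 near no difference at a wide gap. Probes outside the axes are not drawn.

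Of the fibril-associated collagens, Col12a1 gave opposite signs on its 2 probes. Probe A_51_P146168, which starts at base 11127 of the transcript, read 3.76 and 2.42 in Ip6k1+/+ MEFs and 2.60 and 2.43 in Ip6k1-/- MEFs, a difference of -0.57 (SE 0.47, limma adjusted p = 0.993). Probe A_52_P475805, which starts at base 9042, read 0.73 and -0.13 against 0.11 and 0.82, a difference of 0.16 (SE 0.42, limma adjusted p = 0.993). Both probes placed Ip6k1+/+ replicate 1 above replicate 2, by 1.34 and 0.87, but they ranked the Ip6k1-/- lines in opposite order. Neither difference exceeded the spread between lines, and the first turned to 0.10 without Ip6k1+/+ replicate 1 and became -1.24 without replicate 2.

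For Col16a1 the lines of the genotypes overlapped on both probes. Probe A_51_P291062 read 4.63 and 4.35 in Ip6k1+/+ MEFs and 3.99 and 4.42 in Ip6k1-/- MEFs, a difference of -0.28 (SE 0.23, 95% interval -0.90 to 0.33). The junction probe A_52_P556933 was dim but above background in every line and read -2.67 and -3.76 against -3.50 and -3.66, a difference of -0.36 (SE 0.47, 95% interval -1.60 to 0.88). The limma adjusted p-values were 0.993, and neither interval excludes a modest change in either direction.

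Col14a1 was too dim to compare. Probe A_51_P326529 read -6.04 and -4.53 in Ip6k1+/+ MEFs and -7.01 and -5.38 in Ip6k1-/- MEFs, and was well above background in Ip6k1+/+ replicate 2 alone. Probe A_51_P141467 stayed below the background call in every line. No fold is given for this gene.

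Genes that belong to the same collagen classes and genes whose products bind these collagens were read from lists. Of 12 other chains of the same classes, 8 were on the array by name and 4 were compared. None passed limma's test or the 2-fold rule. The median difference was -0.51, but Col9a3 and Col20a1 were compared only because both Ip6k1+/+ lines were above background. Col9a2 and Col8a2, above background in every line, overlapped between genotypes. Col8a2, the partner chain of Col8a1 in collagen VIII, read 2.55 and -1.78 in Ip6k1+/+ MEFs and 2.27 and -2.52 in Ip6k1-/- MEFs. It was high in replicate 1 and low in replicate 2 of both genotypes, as Col8a1 was by smaller steps.

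Of 12 collagen VI receptors and binding partners, 9 were compared, with a median difference of -0.26 and 6 of 9 negative (6470 of 14335 over all gene names). Itga1, at -1.37, was compared only because both Ip6k1+/+ lines were above background. None passed limma's test, and 1 passed the 2-fold rule downwards and none upwards (2.09% and 1.07% over all gene names). Without overlap 2 were lower and 1 higher (13.2% and 18.2% over all gene names). At an unadjusted limma p under 0.05 there was 1, which was lower (2.34% lower and 1.37% higher over all gene names). That gene was Dcn, which encodes decorin, a small proteoglycan that binds both collagen VI and fibrillar collagen. It read 0.99 and 1.89 in Ip6k1+/+ MEFs and -2.09 and 0.18 in Ip6k1-/- MEFs, a difference of -2.40 (SE 0.82) with a limma p of 0.0355 unadjusted and 0.993 adjusted. Antxr1, a cell surface receptor that binds collagen VI, read 3.12 and 3.57 against 2.01 and 3.11 and was the other gene that was lower without overlap, with a difference of -0.78 (SE 0.42). Itgb1, the β chain shared by the collagen-binding integrins, was higher without overlap, at 3.14 and 2.75 against 3.28 and 3.20. In Cspg4 and Itga11 replicate 1 was above replicate 2 in both genotypes. Cspg4, a proteoglycan that binds collagen VI, read 3.94 and 1.53 against 4.18 and 1.69. Itga11, an integrin α chain for fibrillar collagen, read 5.19 and 2.38 against 5.26 and 0.56. Itga2 and Itga10, other integrin α chains for collagen, stayed below the background call in every line.

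Of 7 partners of the FACIT collagens, 6 were compared, with a median of -0.41 and 4 of 6 negative (6470 of 14335 over all gene names). Dcn, already described, was the 1 gene past the 2-fold rule and the 1 lower without overlap (downwards 2.09% and 13.2% of all gene names), and none was higher. Col1a1, a chain of the collagen I fibril, read 5.01 and 5.54 in Ip6k1+/+ MEFs and 5.17 and 4.17 in Ip6k1-/- MEFs, which overlap, whereas Col1a2 was saturated on all 4 arrays. Comp, a pentameric matrix glycoprotein, read 1.00 and -3.34 against 1.24 and -3.53, a wide step between replicates and almost none between genotype means (difference 0.02). Tnxb, which encodes tenascin-X, a partner of collagens XII and XIV, was above background in 1 line.

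Of 9 names for partners of the anchoring fibril, 8 were on the array and 6 were compared. The median difference was 0.16 and 1 of 6 was negative (Bmp1, a protease that trims procollagen VII, -0.38), as 6470 of 14335 gene names were. None passed limma's test or the 2-fold rule, and 1 was higher without overlap, as 18.2% of all gene names were. That gene was Plec1, the plectin that links hemidesmosomes to keratin, which read 2.28 and 2.64 in Ip6k1+/+ MEFs and 3.15 and 3.01 in Ip6k1-/- MEFs, a difference of 0.62 (SE 0.22, limma adjusted p = 0.993). Lama3 and Lamb3, laminin chains of the epithelial basement membrane, were above background in 1 and 2 lines and were not compared.

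**Figure D4:**
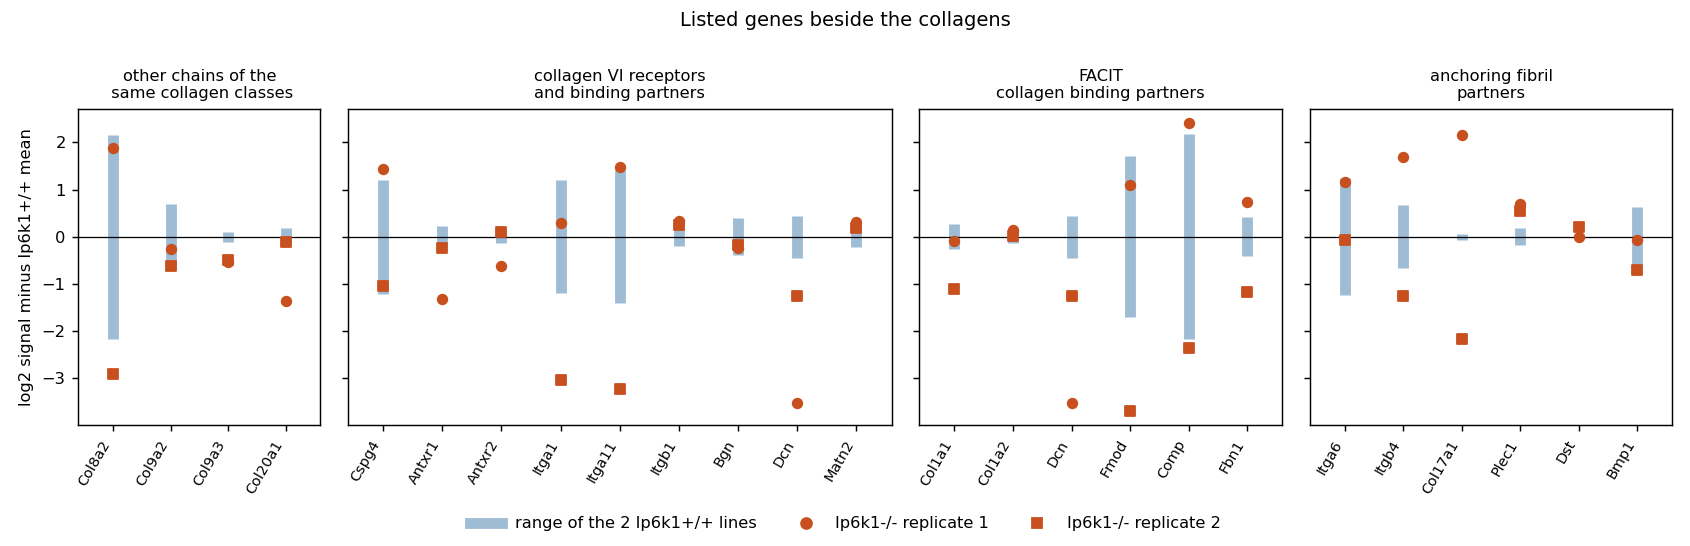
Log2 signal minus the Ip6k1+/+ mean for the listed genes that were compared, in 4 groups by list. Blue bars span the 2 Ip6k1+/+ lines, orange circles and squares are Ip6k1-/- replicates 1 and 2; Dcn (in both partner lists) lies under its bar in both lines, Plec1 above its own, while for Col8a2, Itga11 and Comp the bar and the points spread over several log2 units.

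Of 5 markers of cartilage cells, which make collagen VI as well, the 3 above background in every line were lower on average in Ip6k1-/- MEFs. Col2a1, the cartilage collagen, read 2.15 and -1.10 in Ip6k1+/+ MEFs and -1.07 and -3.18 in Ip6k1-/- MEFs, and Sox9, the cartilage transcription factor, read 1.66 and 1.04 against 1.07 and -2.75. Acan, the large cartilage proteoglycan, differed by -0.97. Col2a1, with a difference of -2.65, was the 1 marker of the list past the 2-fold rule (downwards 2.09% of all gene names), and the lines of the genotypes overlapped for each of the 3. The summed log2 level of the 5 markers was -11.57 and -15.75 in Ip6k1+/+ MEFs and -13.96 and -22.26 in Ip6k1-/- MEFs, which overlaps too. Col9a1 and Matn1 stayed below the background call in every line, with differences of 1.04 and 0.33. The sum therefore includes dim readings and gives no measure of the share of such cells. Of the 7 fibroblast markers 3 were negative (Col1a1 at -0.60, Col3a1 at -1.25 and Pdgfra at -0.71), and Thy1 differed by 1.03. The median difference of 0.07 was that of Vim, which was saturated on 3 arrays. Col1a2 and S100a4 were saturated on 4, so that the small differences of these markers do not measure a genotype change. Among the 7, 1 (Col3a1, at 6.24 and 5.90 against 5.46 and 4.17) was lower without overlap, against 13.2% of all gene names.

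Single markers of other cells also stood apart by genotype. Kdr, an endothelial receptor, was higher without overlap by 1.56 and Cd68, a macrophage marker, by 0.68, which 18.2% of all gene names were without regard to size. Lyz2, the only other macrophage marker above background in any line, went the other way. It was lower without overlap, at -5.11 and -2.34 in Ip6k1+/+ MEFs against -6.27 and -5.35 in Ip6k1-/- MEFs, but was above background in Ip6k1+/+ replicate 2 alone. Cdh15, a myoblast cadherin, was below the background call in Ip6k1-/- MEFs and at least 1.61-fold lower. The summed log2 levels were -30.0 and -31.9 in Ip6k1+/+ MEFs against -29.6 and -27.3 in Ip6k1-/- MEFs for the 5 endothelial markers, -27.4 and -25.1 against -26.5 and -27.9 for the 5 macrophage markers, and -31.5 and -33.1 against -32.9 and -33.0 for the 5 myoblast markers. Below the background call in every line were 4 endothelial, 3 macrophage and 4 myoblast markers. These sums therefore consist mostly of dim readings and give no measure of the share of such cells. The defining markers Pecam1 and Cdh5, Ptprc and Emr1, and Myod1 and Myog stayed below the background call in every line. The part of all these markers in the collagen VI result was not tested.

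The genes whose 4 values ran closest to the collagen VI mean were found by the Euclidean distance between centred log2 profiles, over 13317 candidates that were above background in every line. That mean includes the Col6a3 value of Ip6k1-/- replicate 2, which was below the background call. The Ip6k1-/- lines stood 3.37 log2 units apart for Col6a3, against 0.26 for Col6a1 and 0.46 for Col6a2. The likeness to the mean therefore rests in part on that dim value. Phyhd1 was nearest at a distance of 0.40, followed by Anpep (0.51), Ang6 (0.52), Podxl2 (0.52) and Ang4 (0.53). Phyhd1 read 2.77 and 2.62 in Ip6k1+/+ MEFs and 1.82 and 0.63 in Ip6k1-/- MEFs. Anpep, a cell surface aminopeptidase, read -0.29 and 0.01 against -1.32 and -2.04. Ang4 and Ang6 are close relatives that may share signal on the array, so that they count as uncertain. The chains themselves stood further from their own mean, Col6a2 at 0.72 with 17 candidates nearer, Col6a1 at 0.93 with 47 nearer and Col6a3 at 1.65 with 1080 nearer. With 4 lines the likeness is a description and many genes share it.

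The upstream sequences of the 3 collagen VI genes are shown because these genes were lower together. RefSeq windows on GRCm38.p6, another build than that of the probe positions, were found for 6 of the 8 members (Col6a1, Col6a2, Col6a3, Col7a1, Col8a1 and Col16a1). They hold the 250 bases before the annotated start, 5′ to 3′ on the gene's strand, at chr10:76726045-76726294 for Col6a1, at chr10:76623631-76623880 for Col6a2 (the outermost of its 2 starts) and at chr1:90843972-90844221 for Col6a3, all on the minus strand. Capitals mark motifs found on either strand.
Col6a1: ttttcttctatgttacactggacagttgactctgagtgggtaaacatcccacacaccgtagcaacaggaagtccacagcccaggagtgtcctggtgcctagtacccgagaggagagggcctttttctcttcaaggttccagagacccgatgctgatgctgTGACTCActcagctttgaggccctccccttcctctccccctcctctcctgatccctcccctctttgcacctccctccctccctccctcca
Col6a2: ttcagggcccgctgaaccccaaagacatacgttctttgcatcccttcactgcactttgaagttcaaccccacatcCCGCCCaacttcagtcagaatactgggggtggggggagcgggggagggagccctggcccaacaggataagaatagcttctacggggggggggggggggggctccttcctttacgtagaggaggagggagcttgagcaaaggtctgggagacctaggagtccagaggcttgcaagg
Col6a3: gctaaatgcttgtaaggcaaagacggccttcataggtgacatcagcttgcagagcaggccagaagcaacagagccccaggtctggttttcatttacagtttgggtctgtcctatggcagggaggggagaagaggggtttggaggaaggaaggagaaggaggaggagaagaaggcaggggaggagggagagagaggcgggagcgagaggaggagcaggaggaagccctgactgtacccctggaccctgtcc

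Motifs were searched on both strands, and their shares are over 32851 promoter windows of the same length. The TATA box was searched as TATAAA, which 12.4% of windows hold. The letters of the CCAAT box were found in 33.8%. The GC box was searched as GGGCGG, found in 32.7%, and the AP-1 site as TGANTCA, found in 6.75%. Col6a1 held 1 AP-1 match, 90 bases before the start, and none of the other letters. Col6a2 held 1 GC box in this window, 175 bases before the start. The window of its inner start (GC content 64.4%), not printed because it overlaps the transcript from the outer one, held 3 GC boxes at 67, 15 and 11 bases, the last 2 overlapping. Col6a3 held none of the 4 motifs, so that no searched motif was common to the 3 genes. Of the members with overlapping lines, Col7a1 held 1 CCAAT box and 1 GC box, Col16a1 held 1 of each, and Col8a1 held 4 GC boxes. The GC content of the Col6a1, Col6a2 and Col6a3 windows was 56.0%, 59.2% and 57.2%, against a median of 52.4% over all windows. A match of letters is a description and not a binding site.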

How the data were processed

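RNA of 2 Ip6k1+/+ and 2 Ip6k1-/- MEF lines was hybridised to 1 single-colour Agilent array each. The authors deposited the spot intensity from Feature Extraction 10.5.1.1 (linear, background-corrected) and log2 values shifted to the 75th percentile in GeneSpring, which served as an alternative. Groups were taken from the genotype label. From the deposited intensity, log2 minus the 75th percentile over 43379 non-control spots was taken. Spots flagged as outliers (96 to 133 per array) were left out, saturated spots kept and spots of a probe averaged. Probes well above background on both arrays of a genotype (21590, of which 21573 had values on all arrays) were fitted in limma 3.58.1 under R 4.3.3 (lmFit, then eBayes with its trend option) and Benjamini-Hochberg adjustment over all of them. The fit was tested on simulated data with known changes. A gene was counted by its brightest fitted probe that was not saturated. All members, Ip6k1, listed genes and the 5 nearest profiles were eligible for naming. From a partner list 1 gene was taken out and is not reported here. An "at least" fold sets the brighter mean against the dimmer arrays' lowest signal still called above background. Members and lists were chosen with earlier results of these data known, so no p over a list is given. Alternatives were normexp (offset 50), quantile and median normalization, the deposited log2 values, filters, outlier spots, probe averaging, variance models, fold rules, Student's t-test, a replicate block and leaving out each line. The paper names no test for its arrays. Slide was no block, as all arrays share it. The number of arrays limits the precision. The study's cell assays and RT-qPCR were not used here.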

Additional observations from a re-analysis of the deposited data

How the results depend on the processing

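No member passed the adjusted threshold under any of the 14 alternatives run for single probes, Student's t-test included, or with the mean of the probes of a gene. With all lines kept, the unadjusted count under 0.05 ran from 2 to 3. The 3 came with the replicate block, where 8.18% of all probes were under 0.05 by limma against 3.34% in the main fit. Col6a1 and Col6a2 passed the 2-fold rule downwards under every alternative. Leaving out 1 line gave from 2 to 4 genes lower by that rule and from 0 to 1 higher: without Ip6k1+/+ replicate 2 there were 4 lower (Col6a3 and Col12a1 in addition) and 1 higher (Col7a1), without Ip6k1+/+ replicate 1 there were 3 lower (Col7a1 in addition) and without Ip6k1-/- replicate 1 there were 3 (Col6a3 in addition). The share of all gene names past the rule was not counted with a line left out. The added calls of Col6a3, Col7a1 and Col12a1 therefore have no background to be judged against, and each rests on 1 line of a genotype. With all lines kept, a mean difference of at least 1 alone gave 3 lower. The collagen VI mean of -1.76 stayed negative throughout: -1.17 with normexp, -1.80 with quantile and -1.71 with median normalization, -1.77 with the deposited log2 values, -1.40 with the 2 chains above background on all 4 arrays, -1.67 with the mean of probes, -2.44 to -1.08 when leaving out 1 line, and -1.41 with dim values raised to the lowest signal well above background, an alternative chosen after seeing the data. Likewise chosen, the restriction to genes above background in every line left 2 members lower without overlap in place of 3. Col6a3 ran from -4.17 to -0.80 when leaving out 1 line and was -0.79 with normexp. Of 153 single-probe values 12 turned sign, none of them for collagen VI. Col8a1 A_52_P282058, a lower bound for its saturated spot, became -0.0030 with normexp and -0.13 with quantile normalization. Leaving out 1 line took it from -0.77 to 0.79, Col8a1 A_52_P292792 from -0.88 to 0.93, Col7a1 from -1.66 to 1.99, Col12a1 A_51_P146168 from -1.24 to 0.10 and A_52_P475805 from -0.27 to 0.60, and Col16a1 A_52_P556933 from -0.91 to 0.18; the cause was not tested. In the filter-free fit the median difference of all probes was 0.19. The replicate numbers are not stated to pair the lines. Over the 21573 probes compared, the difference between replicates 1 and 2 correlated at 0.479 between genotypes, from only 2 lines per genotype. With the replicate block, 3 probes passed the adjusted threshold as before, those with an unadjusted p under 0.05 numbered 1765 in place of 721, and the collagen VI mean was again -1.76. Without a line, its genotype has 1 line left, which is assumed to vary as the others do.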
